A study of Mus musculus with 6 samples.

Results

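Class I histone deacetylases and the proteins that hold them on chromatin are described here in Setd2 knockout and wild type mouse embryonic stem cells (mESCs). The set holds 10 genes: the deacetylases Hdac1, Hdac2, Hdac3 and Hdac8, the Sin3 complex genes Sin3a, Sin3b and Sap30, the NuRD genes Mta1 and Mta2, and the CoREST gene Rcor1. They were taken by name from the probe sets that the platform annotation ties to 1 gene, which gave 21 probe sets for the 10 genes, of 18193 genes and 45037 probe sets in all. The set was chosen by a measured value, the lower Hdac1 signal in these knockout arrays, so every knockout minus wild type value of a member is a description and is used as support for nothing. The question was whether the paralogs and partners follow Hdac1.

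Gene expression was measured on 6 Affymetrix mouse genome arrays, 3 of each genotype. Both genotypes were labelled 129SV/C57BL/6 and untreated, and both were grown on feeder cells, most of which were then removed by settling on gelatin and a passage without feeders. Setd2 is the enzyme that trimethylates lysine 36 of histone H3. The labels call the arrays of a genotype biological repeats, without saying whether these are cultures or clones, and they give neither the deleted part of Setd2 nor the number of lines, so the p-values measure the spread between these arrays.

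Class I deacetylases remove acetyl groups from histone tails, and Hdac1 and Hdac2 are closely related proteins with overlapping functions. Both work inside larger complexes: Sin3a or Sin3b is the scaffold of the Sin3 complex and Sap30 a subunit bound to it, Mta1 and Mta2 belong to the nucleosome remodelling NuRD complex, and Rcor1 joins the deacetylases to the demethylase Kdm1a in CoREST. Hdac3 works in the NCoR corepressor complex, and Hdac8 is not known as a stable subunit of any of these. In yeast, the Rpd3S complex, which contains the counterparts of the class I deacetylases and of Sin3, is recruited through methylated H3K36 to remove acetylation from transcribed genes.

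Promoters are shown for the paralogs with the higher signals in knockout cells and for the partner nearest to Hdac1. RefSeq windows of build GRCm38.p6 were matched for 8 of the 10 genes, Hdac2, Hdac8, Sin3a, Sin3b, Sap30, Mta1, Mta2 and Rcor1, with 9 windows among them, of which Sin3a had a pair. The 250 bases before the annotated start are printed 5′ to 3′ on the strand of the gene. Capitals mark the GC box GGGCGG and the CCAAT box CCAAT, each searched on both strands, and neither motif overlapped the other. These windows lie at chr10:36974294-36974543 (plus strand) for Hdac2, at chrX:102505159-102505408 (minus strand) for Hdac8 and at chr8:72723020-72723269 (plus strand) for Sin3b.
Hdac2: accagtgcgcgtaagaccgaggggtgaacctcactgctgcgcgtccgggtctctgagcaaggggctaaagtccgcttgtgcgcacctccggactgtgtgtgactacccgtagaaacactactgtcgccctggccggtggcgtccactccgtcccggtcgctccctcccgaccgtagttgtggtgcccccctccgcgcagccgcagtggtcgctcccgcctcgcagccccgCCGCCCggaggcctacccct
Hdac8: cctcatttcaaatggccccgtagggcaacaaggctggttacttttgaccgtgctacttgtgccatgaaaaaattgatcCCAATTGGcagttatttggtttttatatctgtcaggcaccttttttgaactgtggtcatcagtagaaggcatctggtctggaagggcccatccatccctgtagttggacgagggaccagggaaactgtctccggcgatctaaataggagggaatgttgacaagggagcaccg
Sin3b: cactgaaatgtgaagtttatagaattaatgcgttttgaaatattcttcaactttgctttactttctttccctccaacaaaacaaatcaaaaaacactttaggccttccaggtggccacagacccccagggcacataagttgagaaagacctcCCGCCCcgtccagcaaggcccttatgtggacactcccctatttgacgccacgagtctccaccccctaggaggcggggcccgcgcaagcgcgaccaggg
The Hdac2 window held 27 CpG dinucleotides, the Sin3b window 10 and the Hdac8 window 6, against a median of 6 over 32851 promoter windows of the same length. A GC box lay in a window of 7 of the 8 genes, Hdac8 being the exception, and in 32.7% of all windows. A CCAAT box lay in a window of 3 of the 8, Hdac8, Sin3a and Rcor1, and in 33.8% of all windows. In Hdac8 the 2 CCAAT matches overlap each other on opposite strands. These are matches of letters and carry no measurement of binding.

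Values are log2 signals, so a difference of -1 is a halved signal. The Setd2 probe set read 10.31, 10.30 and 10.31 in wild type and 9.37, 9.50 and 9.60 in knockout arrays. Stem cell markers were bright, with mean log2 levels of 12.92 to 12.94 in wild type and 12.68 to 12.73 in knockout arrays. These levels lay above those of the feeder markers given below. All 10 of 10 listed markers were bright enough to be tested, but so were most feeder and primitive endoderm markers. Passing the filter therefore does not bear out the tissue label. The knockout means include the fall of Zfp42 given next, and the median difference of the 10 was -0.04. Of these 10, Zfp42 (Rex1), which lies on chromosome 8, fell by 1.99 (limma adjusted p = 8.37e-05). At the brightest probe sets it was the only one past the threshold, with or without the replicate number as a block. The block compares arrays within each number. A further Lin28a probe set (1421749_at) was higher on every knockout array, by 1.34 on average (limma adjusted p = 0.0951, and 0.00391 with the block). The genotypes also differed outside Setd2. The genes of chromosome 8 had a median difference of -0.34 over 709 genes, against 0.01 over 12150 genes of the other autosomes and X, and 4 tested Y-linked genes had a median of 4.77. Differences of the members therefore cannot be told apart from other differences between the lines. Of 11 primitive endoderm markers 10 were tested and 2, Gata6 and Col4a1, fell past limma's threshold. Over all genes 0.736% were called in either direction. Col4a1, like Zfp42, lies on chromosome 8. All but Lamb1 and Gata4, 8 of the 10, were lower on every knockout array, and 7 fell with the replicate block. Over all genes 19.2% did not overlap and 9.87% were called with the block, in either direction. The median difference of these markers was -1.10. Their summed signals were 5103 to 5675 in wild type and 3781 to 4151 in knockout arrays, with none at 0. Of 23 feeder markers 21 were tested and 0 passed limma's threshold, with 3 at an unadjusted p under 0.05, against 13.4% of all genes. With the replicate block, Sparc fell and Fn1 and Pdgfrb rose at their brightest probe sets. The further Sparc probe sets were split. On every knockout array 1448392_at was lower, at -0.56 (limma adjusted p = 0.241), and 1458204_at higher, at 0.63 (limma adjusted p = 0.471). The summed signals of the feeder markers ran from 16687 to 26277 in wild type and from 16888 to 24014 in knockout arrays. None of these markers was at 0. Their mean log2 level was 7.80 and 7.64 on the arrays numbered 1 against 8.40 to 8.81 on the others. The part of these marker differences in the values below was not tested.

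Hdac1 was lower in knockout cells on every array. Its 1 probe set (1448246_at, chromosome 4) read 13.46, 13.14 and 13.23 in wild type and 12.45, 12.66 and 12.64 in knockout arrays. The lowest wild type array lay above the highest knockout array by more than the spread within either genotype (SD 0.17 and 0.12, n = 3 each). The mean difference was -0.70 ± 0.10 (SE), which leaves 61.7% of the wild type signal, with a 95% interval of -0.93 to -0.46. These bulk arrays cannot tell fewer cells with Hdac1 RNA from less RNA per cell. RefSeq also lists a pseudogene, Hdac1-ps, on chromosome 17, and whether it adds to this signal was not tested. The 2 arrays numbered 1 lay at the far ends, wild type 1 highest and knockout 1 lowest, and the difference was -1.02 between them against -0.48 and -0.60 within numbers 2 and 3.

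Of the 21 member probe sets 19 passed the filter on dim signals, and each of the 10 genes had at least 1 of them. One fell and 0 rose past limma's adjusted p of 0.05, and the one was Hdac1, by which the set was chosen. Over all 27022 tested probe sets 0.374% fell and 0.274% rose. At an unadjusted p under 0.05 there were 8 of the 19, 3 of them higher, against 11.7% of all tested probe sets. Hdac1 stood just inside the threshold (limma adjusted p = 0.0304) and 3 probe sets of Sin3b just outside it (0.0623, 0.0625 and 0.0657). With the replicate number as a block in limma, 5 member probe sets fell (Hdac1, 3 of Sin3b and Sap30) and 1 rose (Hdac2, 1449080_at), against 4.39% and 3.49% of all tested probe sets. The Hdac1 call was lost when wild type 1, 2 or 3 or knockout 2 or 3 was left out (limma adjusted p = 0.0607, 0.0976, 0.184, 0.0967 and 0.114), and it held without knockout 1 (0.0260). Without knockout 1 the number of member probe sets called was 4, all lower, against 1.03% of all probe sets lower in that fit. The contrast is the one that chose the set, so nothing is read from these counts.

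**Figure D1:**
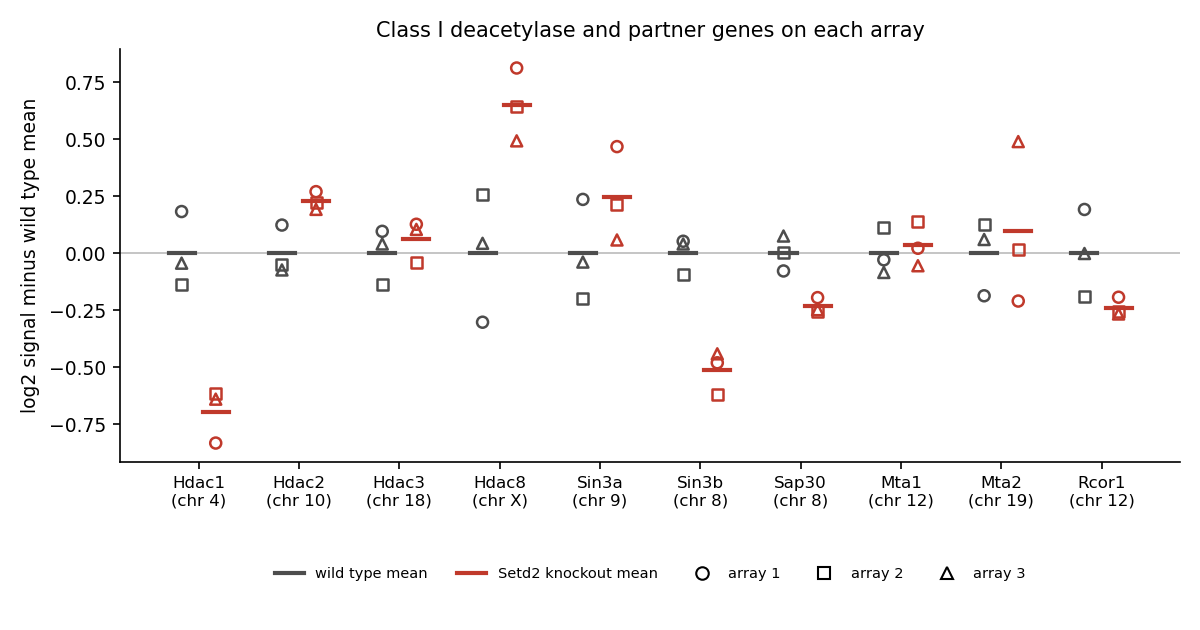
Log2 signal of each of the 10 genes on each of the 6 arrays, at the probe set with the highest mean, minus the wild type mean of that gene. Grey is wild type and red is Setd2 knockout, the marker shape gives the array number and the bar the mean of 3 arrays. Hdac1, Sin3b, Sap30 and Rcor1 lie lower in every knockout array and Hdac2 and Hdac8 higher.

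At the brightest probe set of each gene, the knockout arrays lay wholly below the wild type arrays in 4 of the 10 genes (Hdac1, Sin3b, Sap30 and Rcor1), wholly above them in 2 (Hdac2 and Hdac8), and overlapped in 4 (Hdac3, Sin3a, Mta1 and Mta2). Over all 12915 genes tested, 19.2% did not overlap. Over the 19 tested probe sets 7 lay wholly below and 3 wholly above, against 8.99% and 9.16% of all probe sets, in the contrast that chose the set. The median difference of the 10 genes was 0.05, beside 0.00 for all genes, and 4 of the 10 lay below 0, beside 50.1% of all genes. The members thus lay on both sides of 0, with a median and a share below 0 near those of all genes. Nothing more is read from this, since the contrast chose the set.

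The nearest paralog went the other way. Hdac2 (chromosome 10) read 12.35, 12.18 and 12.15 in wild type and 12.50, 12.45 and 12.42 in knockout arrays at its brightest probe set (1445684_s_at). All 3 knockout arrays were higher, by 0.23 on average (95% interval 0.03 to 0.42), or 117% of the wild type signal. This difference did not pass limma's threshold (adjusted p = 0.338, and 0.0571 with the block). A further probe set (1449080_at) read 11.56, 11.35 and 11.46 in wild type and 11.83, 11.72 and 11.67 in knockout arrays, a difference of 0.29 (0.06 to 0.51). Again no knockout array fell within the wild type range. The last Hdac2 probe set (1439704_at) read 4.58, 4.98 and 4.43 in wild type and 5.18, 6.09 and 5.88 in knockout arrays, too dim to be tested, and its difference was 1.06. All 3 Hdac2 probe sets thus agreed in direction. Relative to Hdac1, Hdac2 was higher by 1.10, 0.84 and 0.83 in knockout arrays 1, 2 and 3 than in the wild type mean. The wild type arrays spread by 0.08 (SD) in this measure. Its larger part is the Hdac1 difference of -0.70, which chose the set, beside 0.23 for Hdac2. Nothing about Hdac2 is therefore read from it.

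Hdac8 and Hdac3 did not follow Hdac1 downwards. Hdac8 (1428933_at, chromosome X) read 6.96, 7.52 and 7.31 in wild type and 8.07, 7.91 and 7.76 in knockout arrays. Every knockout array was higher, and the mean difference of 0.65 (95% interval 0.18 to 1.12) corresponded to 157% of the wild type signal. It did not pass limma's threshold (adjusted p = 0.254, and 0.0638 with the block). The difference was widest between the arrays numbered 1, where wild type 1 was the lowest array and knockout 1 the highest; within numbers 2 and 3 it was 0.39 and 0.45. The 419 tested genes of chromosome X had a median difference of 0.04. Hdac3 (1426437_s_at), the catalytic subunit of the NCoR complex, read 10.81, 10.58 and 10.75 in wild type and 10.84, 10.67 and 10.82 in knockout arrays. The genotypes overlapped, with a difference of 0.06 and a 95% interval of -0.20 to 0.32.

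**Figure D2:**
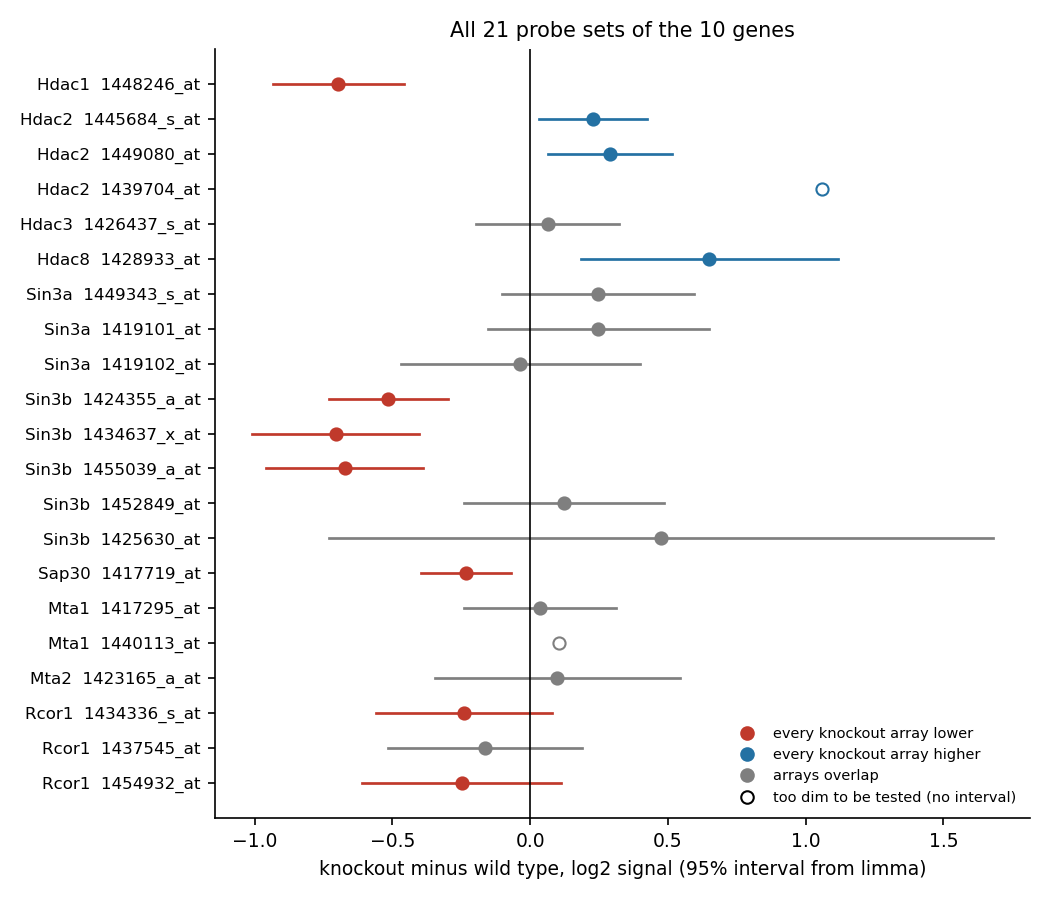
Knockout minus wild type difference on the log2 scale for all 21 probe sets, with the 95% interval from limma; open circles are the 2 probe sets too dim to be tested. Red and blue mark probe sets whose 3 knockout arrays all lie below or above the 3 wild type arrays. Hdac1 is at -0.70, the 3 Hdac2 probe sets lie between 0.23 and 1.06, and the 5 Sin3b probe sets run from -0.71 to 0.47.

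Among the scaffolds of the Sin3 complex, Sin3b resembled Hdac1 and Sin3a did not. At its brightest probe set (1424355_a_at, chromosome 8) Sin3b read 12.04, 11.90 and 12.03 in wild type and 11.51, 11.37 and 11.55 in knockout arrays. No knockout array came near the wild type range, and the difference was -0.51 ± 0.09 (SE), or 70.0% of the wild type signal. The probe set 1434637_x_at read 11.93, 11.79 and 11.96 in wild type and 11.29, 10.91 and 11.37 in knockout arrays, a difference of -0.71 ± 0.13 (SE). A further bright probe set (1455039_a_at) read 11.72, 11.44 and 11.61 in wild type and 10.97, 10.73 and 11.05 in knockout arrays, a difference of -0.67 ± 0.12 (SE). These 3 therefore placed Sin3b at about the size of the Hdac1 difference.

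The other 2 Sin3b probe sets did not share that direction. The probe set 1452849_at read 8.31, 8.22 and 8.01 in wild type and 8.27, 8.41 and 8.21 in knockout arrays. The genotypes overlapped at a difference of 0.12 (95% interval -0.24 to 0.49), which lies apart from the intervals of the 3 bright probe sets. The dimmest (1425630_at) read 5.85, 5.89 and 4.01 in wild type and 6.01, 5.49 and 5.67 in knockout arrays, and wild type 3 alone accounts for most of its spread (interval -0.73 to 1.68). Which transcripts or exons each probe set reads was not analysed here. In the names Affymetrix gives, an a suffix marks probes shared by transcripts of 1 gene, and s or x marks probes that can also match other transcripts.

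Sin3b and Sap30 both lie on chromosome 8, whose genes were lower as a whole in knockout cells. Against the median of -0.34 for chromosome 8, the 3 bright Sin3b probe sets were lower by a further -0.18, -0.37 and -0.33, and 26.7%, 11.1% and 13.3% of the 709 chromosome 8 genes lay lower still. They thus sat inside the spread of their chromosome, where 10% of genes differed by -0.73 or less. Sap30 (1417719_at), the Sin3 subunit, read 13.05, 13.13 and 13.20 in wild type and 12.93, 12.87 and 12.88 in knockout arrays. Its knockout arrays were all lower, by 0.23 on average (interval of the difference -0.40 to -0.07), a smaller shift than the chromosome's median by 0.11, with 65.4% of chromosome 8 genes lower. A change of these genes cannot be told apart from the shift of the whole chromosome.

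**Figure D3:**
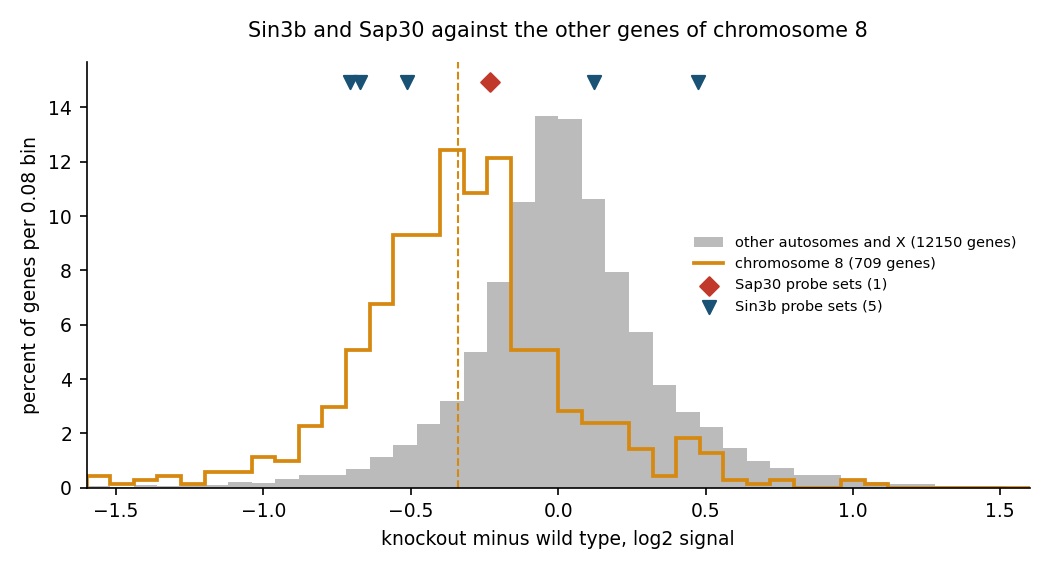
Distribution of knockout minus wild type differences (log2) over the 709 tested genes of chromosome 8 (orange outline, dashed line at the median of -0.34) and the 12150 of the other autosomes and X (grey), as percent of genes per bin of 0.08; 47 genes beyond 1.6 in either direction are not drawn. The blue triangles are the 5 Sin3b probe sets and the red diamond is Sap30; 3 Sin3b probe sets lie in the lower part of the chromosome 8 distribution and Sap30 lies at -0.23.

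Sin3a (chromosome 9), the other scaffold, overlapped between genotypes at all 3 of its probe sets. The brightest (1449343_s_at) read 11.07, 10.64 and 10.80 in wild type and 11.30, 11.05 and 10.89 in knockout arrays, a difference of 0.25 with an interval of -0.10 to 0.59. The arrays numbered 1 were the highest in each genotype, by 0.35 and 0.33 over the mean of numbers 2 and 3, so that array number parted them as much as genotype did. The other Sin3a probe sets differed by 0.25 (1419101_at) and -0.04 (1419102_at). Within number pairs the brightest differed by 0.23, 0.41 and 0.10, higher in knockout each time.

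The NuRD subunits Mta1 and Mta2 stayed close to their wild type levels on average. Mta1 (1417295_at) read 10.02, 10.16 and 9.96 in wild type and 10.07, 10.19 and 9.99 in knockout arrays, the closest match between genotypes among the brightest probe sets of the 10 genes. Its difference was 0.04 (95% interval -0.24 to 0.31); the other Mta1 probe set (1440113_at), with means of 2.73 and 2.84, was too dim to be tested. Mta2 (1423165_a_at) read 9.49, 9.80 and 9.74 in wild type and 9.47, 9.69 and 10.17 in knockout arrays. Its difference of 0.10 (-0.35 to 0.54) rested on knockout 3, and within numbers 1 and 2 the knockout array was slightly lower.

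Rcor1, the CoREST scaffold on chromosome 12, lay slightly lower in knockout cells at all 3 of its probe sets. The brightest (1434336_s_at) read 9.87, 9.49 and 9.68 in wild type and 9.49, 9.42 and 9.41 in knockout arrays. The groups just failed to touch, since wild type 2 at 9.490 and knockout 1 at 9.487 were nearly equal, and the difference was -0.24 with an interval of -0.56 to 0.08. A further probe set (1454932_at) read 8.43, 8.40 and 8.34 in wild type and 7.98, 8.33 and 8.12 in knockout arrays, at -0.25, and the last (1437545_at) overlapped at -0.16. The intervals of all 3 include 0 without the block. With the block, that of the brightest runs from -0.47 to -0.01, its knockout array being lower within each number (-0.39, -0.07 and -0.27), at an adjusted p of 0.210 in limma.

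How closely each gene followed Hdac1 was measured as the root mean square difference between their log2 profiles over the 6 arrays, each profile centred on its own mean. This distance is a description over 6 arrays and includes the genotype contrast that chose Hdac1. Among 12914 other genes the median distance was 0.44. Sin3b was the nearest member at 0.15, with 0.395% of genes nearer, followed by Rcor1 at 0.25 (4.75% nearer) and Sap30 at 0.28 (8.32%). Mta1 and Hdac3 stood at 0.40 (37.5% and 37.8%), and Mta2, Hdac2, Sin3a and Hdac8 lay beyond the median at 0.47, 0.47, 0.51 and 0.74. Hdac8 was the farthest, with 92.1% of genes nearer. Set against Hdac1 on the same array, 8 of the 9 other genes were less reduced on every knockout array. The exception was Sin3b, which on knockout 2 was level with Hdac1 (-0.01). Hdac1 was chosen for its lower knockout signal, which largely fixes this count. The share over all genes was not computed, so nothing is read from the count.

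The 5 genes nearest to Hdac1 in this measure were Nlrx1, a mitochondrial protein of the innate immune NLR family (distance 0.07), Apobec2, a relative of the cytidine deaminases (0.08), the immediate early gene Ier2 (0.09), the protein kinase C gene Prkce (0.10) and the syntrophin gene Sntb2 (0.10). Nlrx1 read 9.16, 8.92 and 9.02 in wild type and 8.07, 8.33 and 8.24 in knockout arrays. Like Hdac1, it was highest on wild type 1 and lowest on knockout 1. Ier2 and Sntb2 lie on chromosome 8. None of the 10 members was among the 5.

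**Figure D4:**
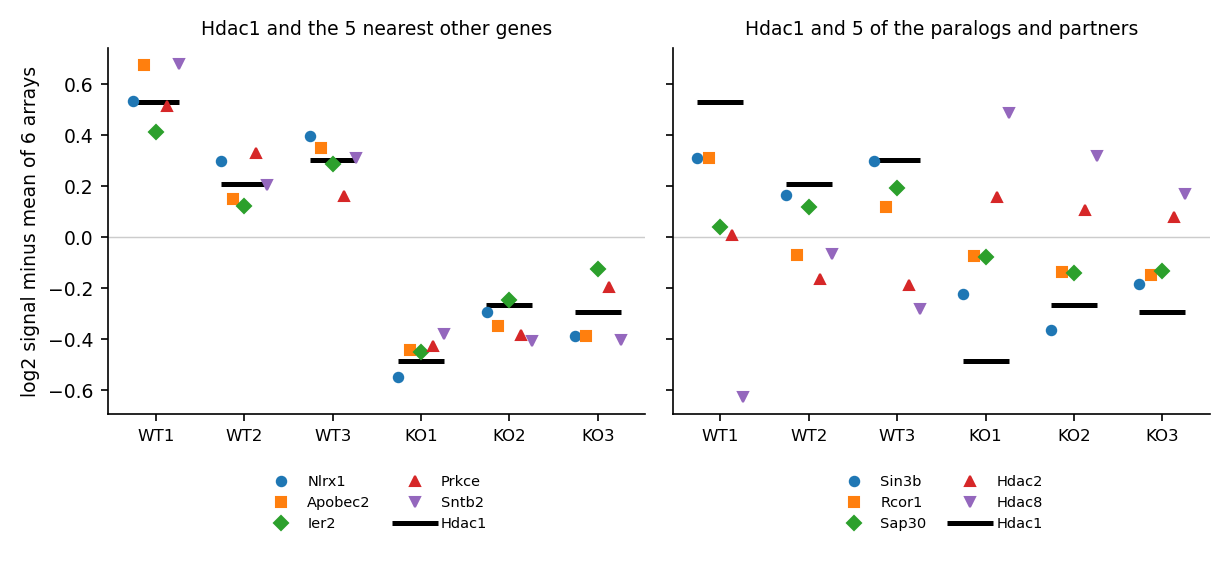
Log2 signal minus each gene's mean over the 6 arrays, for the 3 wild type (WT) and 3 knockout (KO) arrays. The black bar is Hdac1 in both panels; the left panel shows the 5 genes with the smallest distance from it (0.07 to 0.10), the right panel Sin3b, Rcor1, Sap30, Hdac2 and Hdac8, of which Hdac2 and Hdac8 lie on the opposite side of 0 from Hdac1 in the knockout arrays.

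Other genes of the same complexes, and of the opposing acetyltransferases, did not shift with Hdac1 as a group. Of 73 listed genes 68 were tested and 0 passed limma's adjusted p of 0.05, against 0.736% of all genes. At an unadjusted p under 0.05 there were 6 of the 68, against 13.4% of all genes, a share that the 6 did not exceed. The median difference was 0.02, with 29 of the 68 below 0. With the replicate block 3 fell and 3 rose in limma, against 9.87% of all genes called in either direction, and leaving out the arrays numbered 1 gave 5 called, against 9.24% of all genes.

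Of 14 other deacetylases, 1 rose with the block: Hdac6, the cytoplasmic deacetylase of tubulin, which lies on X. It read 10.57, 10.19 and 10.34 in wild type and 11.20, 10.83 and 10.61 in knockout arrays, every knockout array higher, at 0.51 ± 0.17 (SE; limma adjusted p = 0.287, and 0.00913 with the block). The brightest of this list, the sirtuin gene Sirt1, differed by -0.29 (limma adjusted p = 0.461). The list median was -0.02.

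Of 17 other Sin3 subunits, 1 rose with the block: Sap30l, a paralog of Sap30. It read 10.61, 10.23 and 10.30 in wild type and 10.93, 10.61 and 10.79 in knockout arrays, at 0.40 ± 0.14 (SE; limma adjusted p = 0.319, and 0.0149 with the block). Sap30 itself lay at -0.23 (limma adjusted p = 0.243), a smaller fall than the chromosome 8 median of -0.34. Whether these paralogs differ in their response was not tested. The brightest, the histone binding proteins Rbbp4 and Rbbp7, which NuRD shares, differed by 0.03 and 0.10 (limma adjusted p = 0.903 and 0.564), and the list median was 0.06.

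Of 12 other NuRD subunits, 1 fell with the block: Gatad2a, which read 12.04, 12.22 and 12.26 in wild type and 11.75, 11.91 and 11.93 in knockout arrays, at -0.31 ± 0.10 (SE; limma adjusted p = 0.253, and 0.0146 with the block). The list median was 0.05, and the remodelling ATPase gene Chd4 differed by 0.02 at its brightest probe set. A further Chd4 probe set (1436343_at) was lower on every knockout array, at -0.19 (limma adjusted p = 0.629), while 1438476_a_at overlapped at 0.04. Of 8 other CoREST genes, 1 fell with the block: Gse1, which read 9.28, 9.20 and 9.27 in wild type and 8.23, 8.90 and 8.67 in knockout arrays, at -0.65 ± 0.19 (SE; limma adjusted p = 0.211, and 0.0217 with the block). Its brightest members, the demethylase Kdm1a and Zmym2, differed by -0.03 and 0.01 (limma adjusted p = 0.918 and 0.979), and the list median was -0.02.

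Gatad2a and Gse1 also lie on chromosome 8. All 5 tested genes of these lists on that chromosome, Ing1, Ing2, Gatad2a, Gse1 and Kat6a, were below 0, from -0.09 to -0.65, and the chromosome median was -0.34. They made up 2 of the 3 genes that fell with the block. The genes of the lists off chromosome 8 had a median of 0.03.

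Of 6 genes of the NCoR and mitotic deacetylase complexes 0 passed limma's threshold with or without the block, and 0 had an unadjusted p under 0.05. They ran from -0.09 to 0.14, and the brightest, Rere and Tbl1xr1, differed by -0.02 and -0.09. Of 13 acetyltransferases, Kat2b (PCAF) fell and Kat8 (MOF) rose with the block, at -0.48 ± 0.22 (SE; limma adjusted p = 0.458, and 0.00481 with the block) and 0.38 ± 0.11 (SE; 0.208 and 0.0238). Kat2b read 11.19, 11.65 and 11.73 in wild type and 10.57, 11.21 and 11.35 in knockout arrays, which overlap between genotypes but are lower within each number. Kat8 read 10.38, 10.52 and 10.60 in wild type and 10.89, 10.94 and 10.81 in knockout arrays, with no overlap. The brightest of this list, Hat1 and Kat6b, differed by -0.07 and 0.03.

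**Figure D5:**
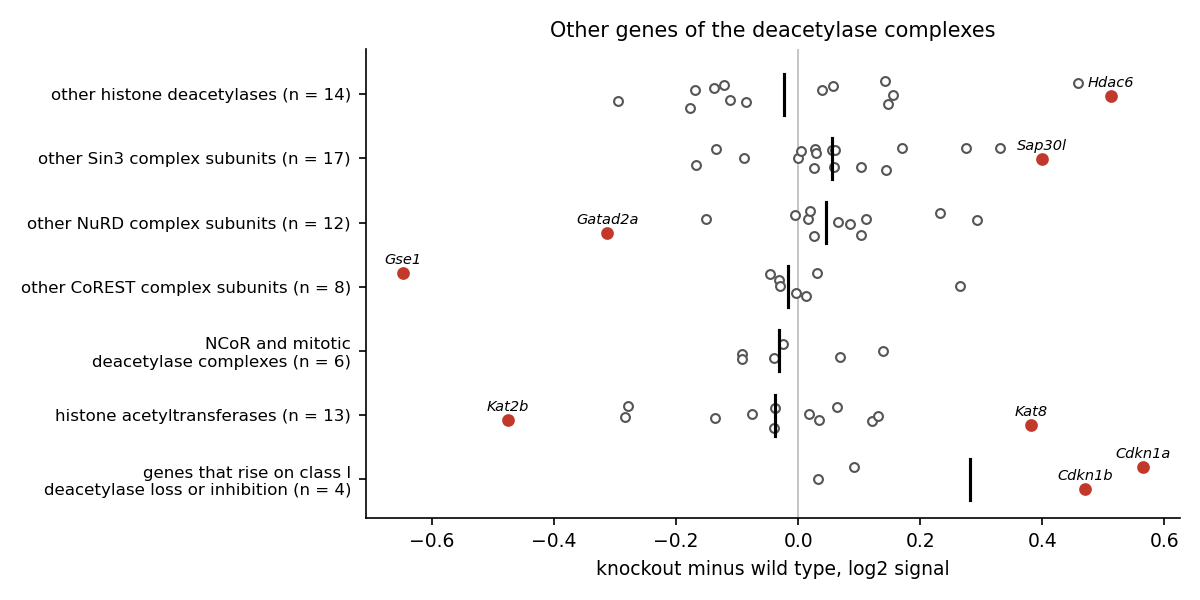
Knockout minus wild type difference (log2) of each tested gene of 6 lists of other complex genes and of 4 genes known to rise when class I deacetylases are lost or inhibited, at the brightest probe set. Black bars are list medians, and filled red points with names passed limma's threshold with the replicate block; none passed it without the block. The 6 list medians lie between -0.04 and 0.06.

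Genes known to rise when class I deacetylases are lost or inhibited were listed too, and 4 of 5 were tested. In limma 0 passed the threshold without the block, and 2 had an unadjusted p under 0.05 (13.4% of all genes did). These 2, the cell cycle inhibitor genes Cdkn1a (p21) and Cdkn1b (p27), rose with the block. Over all genes 9.87% were called with the block and 19.2% did not overlap, in either direction. Whether these values have to do with Hdac1 was not tested. Cdkn1a read 10.65, 10.54 and 10.72 in wild type and 11.26, 11.54 and 10.81 in knockout arrays, all higher, at 0.56 ± 0.18 (SE; limma adjusted p = 0.256, and 0.0314 with the block). Its further probe set (1421679_a_at) was also higher on every knockout array, at 0.28, but was not called (limma adjusted p = 0.419, and 0.0859 with the block). Cdkn1b read 8.87, 8.38 and 8.57 in wild type and 9.21, 9.07 and 8.95 in knockout arrays, all higher, at 0.47 ± 0.17 (SE; limma adjusted p = 0.324, and 0.0418 with the block). The actin severing gene Gsn and the plasminogen activator gene Plat overlapped between genotypes at their brightest probe sets, at 0.09 and 0.03 (limma adjusted p = 0.875 and 0.984). The 4 further tested Gsn probe sets ran from -0.29 to 0.07, and 1436991_x_at, at -0.29, was lower on every knockout array (limma adjusted p = 0.442). The further Plat probe set (1458553_at) overlapped at -0.32 (limma adjusted p = 0.800). Plat lies on chromosome 8, and Cdkn1a is also a target of p53.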

How the data were processed

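The deposited table held log2 signals of 45037 probe sets on 6 arrays, which the authors made with MAS5, per the submitters' processing notes; its version is not given in the sources used here. As a check of the scale, after raising 2 to them the trimmed mean of every array was 497. Control probe sets and detection calls were not used here. The values were used as deposited, without pseudocount or further normalization. Symbols came from the platform annotation, updated by gene identifier against RefSeq GRCm38.p6 for 34741 of 34945 probe sets naming 1 gene; 932 named several. Probe sets with a mean below the 40th percentile (5.27) were left out, leaving 27022. Differences were fitted on all of these with limma 3.58.1 in R 4.3.3 (intensity trend, two-sided, Benjamini-Hochberg), checked on simulated data, and genes were represented by their brightest tested probe set. For arrays, their number limits the precision.

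Arrays of the same number correlated in their deviations from the genotype means at 0.50, 0.23 and 0.24, all above 0.1. The numbers were therefore treated as pairs, and a further fit blocked on them. Wild type 2 with knockout 3 and wild type 3 with knockout 2 also correlated, at 0.23 and 0.17. Unlike numbers that included number 1 correlated negatively. These values set number 1 apart but cannot show that numbers 2 and 3 are pairs. The labels do not say what a number shares. The named genes were all members, listed genes past the threshold with or without the block, and the 1 or 2 brightest of a list. Gsn and Plat were named as the rest of a short list, and the 5 genes nearest to Hdac1 without clone names. Chd4, Ing1, Ing2, Kat6a and the further probe sets of Lin28a, Sparc, Chd4 and Zmym2 were added after their values were seen. Members and lists were chosen with earlier results of these data known. Of the listed genes, Sap18, Sap25 and Morf4l1 shared probe sets with other genes, and a few others were not analysed here. Normalization, centring, filter, floor, trend, block, chromosomes and single arrays were varied.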

Additional observations from a re-analysis of the deposited data

How the results depend on the processing

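The Hdac1 difference stayed below 0 in all 15 alternatives tried, from -0.77 to -0.54, and kept its call in 9. It lost the call without the intensity trend (-0.70, limma adjusted p = 0.170) and without any 1 array but knockout 1, where it ran from -0.77 to -0.60 (adjusted p = 0.0607 to 0.184). The number of member probe sets called was 1; it was 0 without the trend, 6 (5 lower and 1 higher) with the replicate block, 6 (5 lower and 1 higher) without the arrays numbered 1, and between 0 and 4, all lower, with single arrays left out. Of the other complex genes 0 were called; the count was 6 with the block, 5 without the arrays numbered 1, and 0 with single arrays left out. Over all tested probe sets the 175 calls became 57 without the trend, 2129 with the block, 2025 without the arrays numbered 1, and 33 to 437 with single arrays left out. The cause of these changes was not tested. The other 9 genes gave 167 differences and profile distances under an alternative, and 166 moved by less than the spread within genotypes. The exception was the Hdac8 difference without the arrays numbered 1, at 0.42. Many of the 167 could not move. Filter, trend, block and left-out chromosomes do not alter a difference, and the floor lay below these signals. Centring, floor and left-out chromosomes left the profile distances unchanged as well. Nothing is therefore read from this count. Hdac3, Mta1 and Mta2 changed sign in 1, 3 and 1 of 15. Outside the members and other complex genes, the block also changed calls among the marker genes. It did so too for Cdkn1a, Cdkn1b and some further probe sets, as given where they are named. Sin3b and Sap30 give no value where chromosome 8 is left out. The low signals of 1439704_at and 1440113_at, without detection calls, limit what can be said of them.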

Other observations

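Further probe sets of a few listed genes are given here, chosen after their values were seen. For Phf21a, a CoREST subunit, the brightest probe set differed by 0.27 with overlapping genotypes, while 1435619_at read 7.85, 7.44 and 7.58 in wild type and 8.28, 8.57 and 8.35 in knockout arrays, at 0.77 ± 0.18 (SE; limma adjusted p = 0.120 without and 0.0173 with the replicate block). For Ncoa3, a nuclear receptor coactivator, the probe set 1422737_at read 10.40, 10.49 and 10.45 in wild type and 10.10, 10.07 and 10.18 in knockout arrays, at -0.33 ± 0.11 (SE; limma adjusted p = 0.265, and 0.0413 with the block). Of the further Gatad2a probe sets, 1423992_at differed by -0.42 (limma adjusted p = 0.166, and 0.00884 with the block), with every knockout array lower, like the brightest one. The probe set 1445239_at was also lower on every knockout array, at -0.24 (limma adjusted p = 0.649), while 1455505_at and 1451198_at overlapped between genotypes at -0.23 and -0.00 (limma adjusted p = 0.714 and 0.999). The further Gse1 probe sets overlapped at -0.22 (1429653_at) and -0.49 (1453222_at), and that of Kat2b (1457809_at) at 0.10.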
